A study of Mus musculus with 32 samples.

Results

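The class II and class IV histone deacetylases comprise 7 mouse genes, and all 7 were taken by name from the gene-level read counts, which hold 54146 gene identifiers. They are the class IIa genes Hdac4, Hdac5, Hdac7 and Hdac9, the class IIb genes Hdac6 and Hdac10, and the only class IV gene, Hdac11. All 7 passed the filter on low counts in both brain regions. Their raw counts lay between 116 for Hdac10 and 5974 for Hdac11 in single libraries.

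The libraries were poly(A) RNA-seq of single hippocampal or striatal hemispheres from male C57BL/6J mice aged 12 weeks, killed 1 hour after a behavioural session. CI-994, a class I HDAC inhibitor called HDACi in the sample names, was injected intraperitoneally at 30 mg/kg 1 hour before that session. The 4 treatments in each region were CI-994 before CFC (contextual fear conditioning, in which mice receive mild foot shocks, here 2 at 0.2 mA), vehicle (the same dimethyl sulfoxide, Kolliphor and saline mixture) before CFC, CI-994 before the context without shock, and vehicle before that context, with 4 libraries each and 32 in all. Cages were assigned whole to CFC or to context, so cage and behaviour cannot be told apart. The mice carried no transgene in the labels, every group was handled and injected, and the labels do not say which hippocampal and striatal libraries came from the same mouse.

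Class IIa HDACs have very weak deacetylase activity of their own and act mainly as scaffolds. They bind MEF2 transcription factors at their target genes and recruit the NCoR and SMRT corepressors, which bring in the class I enzyme Hdac3. Calcium-activated and other kinases phosphorylate them, 14-3-3 proteins then hold them in the cytoplasm, and in neurons activity moves them between nucleus and cytoplasm. Hdac6 deacetylates tubulin and other cytoplasmic proteins, Hdac10 removes acetyl groups from polyamines, and Hdac11 removes long acyl groups from proteins. CI-994 is not a drug aimed at these enzymes, so the values below are transcript levels of family members outside the labelled target class.

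Library totals ran from 26026024 to 36670767 counts. Summed over 10 medium spiny neuron genes, the vehicle context libraries had 293 to 311 CPM (counts-per-million) in the hippocampus and 7693 to 9011 CPM in the striatum, and 10 hippocampal excitatory neuron genes gave 1821 to 1981 CPM in the hippocampus against 484 to 590 CPM in the striatum. 4 libraries stood apart: choroid plexus genes summed to 6001 and 5815 CPM in replicates 2 and 4 of the hippocampal CI-994 CFC group, against 29.3 to 420 CPM in the other hippocampal libraries. Medium spiny neuron genes were low in replicate 2 of the striatal CI-994 CFC group (5894 CPM) and replicate 3 of the striatal vehicle CFC group (6407 CPM). The other striatal libraries had 7463 to 9716 CPM.

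Hdac11 had the highest level of the 7 genes. Per length of all annotated exons of a gene joined, as TPM (transcripts-per-million), its median over 16 libraries was 117 in the hippocampus and 133 in the striatum. Hdac5 followed at 29.4 TPM in the hippocampus and 30.7 TPM in the striatum, and Hdac6 at 24.5 TPM in the hippocampus and 19.9 TPM in the striatum. Hdac11 exceeded Hdac5, and Hdac6 exceeded Hdac4, without overlap of their ranges in either region. The joined exons are 15813 bases for Hdac4 and 14665 bases for Hdac9, while their longest transcripts are 8100 and 7940 bases. For Hdac6 these lengths are 5817 and 5037 bases, so the distance of Hdac6 from Hdac4 and Hdac9 depends on the length used. In CPM, which uses no length, Hdac4 averaged 55.9 and Hdac6 44.4 in the hippocampus after vehicle and context.

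In TPM the remaining 4 genes were lower and closer together. In the hippocampus the medians were 11.9 TPM for Hdac4, 10.7 TPM for Hdac9, 8.88 TPM for Hdac10 and 8.43 TPM for Hdac7, and each of these neighbours overlapped the next in its range. In the striatum the order changed to Hdac4 (7.55 TPM), Hdac7 (5.64 TPM), Hdac10 (5.47 TPM) and Hdac9 (4.13 TPM). Hdac7 exceeded Hdac10 there in only 8 of 16 libraries, whereas Hdac4 exceeded Hdac7 in 16 of 16 although their ranges over all libraries overlapped. Hdac5 exceeded Hdac6 in 11 of 16 hippocampal and 16 of 16 striatal libraries. Joined exons and longest transcript differ less for Hdac7 (6755 and 5179 bases) and Hdac10 (3379 and 2895 bases) than for Hdac9. The last place of Hdac9 in the striatum therefore holds for joined exons only.

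**Figure D1:**
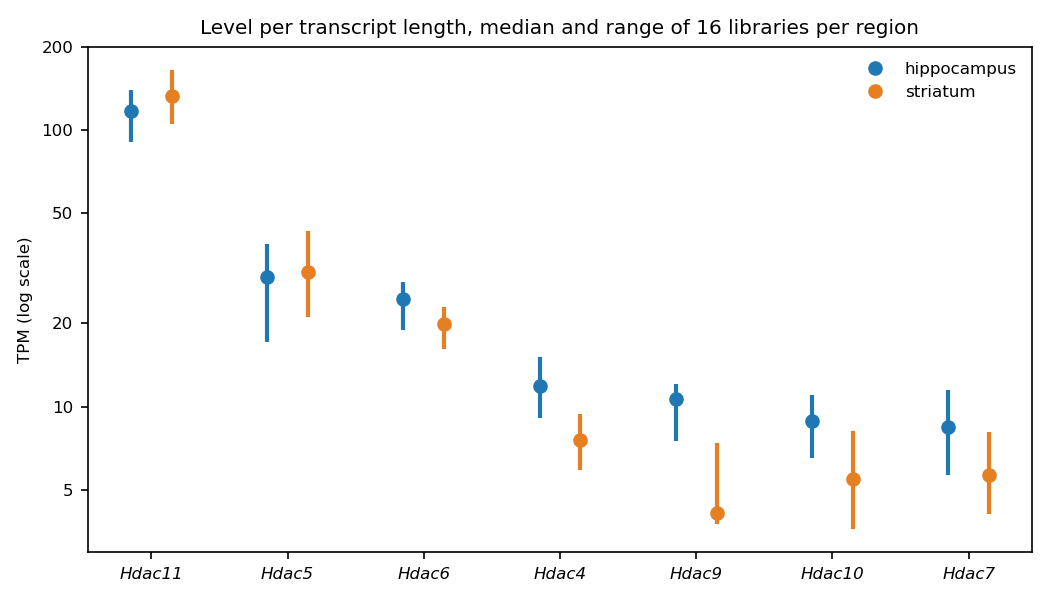
Level per length of joined annotated exons (TPM, logarithmic axis) of the 7 genes in the hippocampus and the striatum. Points are medians, and lines run from the lowest to the highest of 16 libraries. Hdac11 stands at 90.5 TPM or more in every library, and Hdac9 has the lowest striatal median by this length.

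Set beside the 4 class I genes, the 7 genes made up between 53.0% ± 5.28 (hippocampal vehicle context group) and 64.6% ± 2.58 (striatal CI-994 CFC group) of the summed TPM of all 11 classical HDAC genes (mean ± SD, n = 4). Hdac11 alone accounted for 31.7% in the hippocampus and 41.5% in the striatum after CI-994 with CFC, and for 29.2% in the hippocampus and 36.6% in the striatum after vehicle with context. At matched treatments the mean class IIa share was higher in the hippocampus than in the striatum: 17.8% against 16.3% after CI-994 with CFC, 14.5% against 14% after vehicle with CFC, 16.7% against 15.1% after CI-994 with context, and 14.5% against 13.4% after vehicle with context. The SDs of these class IIa shares ran from 0.565 to 2.55 percentage points, and the differences were not tested. All shares here depend on the joined exon lengths used for TPM.

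The first comparison was between the regions at vehicle baseline after context. 3 of the 7 genes differed, where 44.1% of 19198 genes tested did (edgeR's quasi-likelihood F test, Benjamini-Hochberg adjusted p under 0.05, the threshold for every call here): Hdac9 and Hdac4 were higher and Hdac11 lower in the hippocampus. In bulk tissue, fewer cells of a type and less RNA per cell cannot be told apart, and the regions differ in cell types.

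Hdac9, a class IIa member that also gives rise to a short form without the deacetylase domain, had 44.3, 44.1, 48.6 and 49.0 CPM in the 4 hippocampal vehicle context libraries, against 18.5, 19.6, 20.7 and 22.6 CPM in the 4 striatal ones. The groups were far apart, at 2.24-fold higher in the hippocampus (log2 difference 1.16, SE 0.135, edgeR adjusted p = 2.65e-08). The same order without overlap held in the 3 other treatments, where the ratio of hippocampal to striatal mean CPM was 1.92 after CI-994 with CFC, 2.29 after CI-994 with context and 2.05 after vehicle with CFC. Markers of hippocampal excitatory neurons differed between the same libraries as given above, and their part in the result was not tested.

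Hdac4, a class IIa member known from growth plate cartilage and from neurons, had 67.1, 59.1, 50.5 and 46.7 CPM in hippocampal and 41.5, 38.9, 32 and 31.6 CPM in striatal vehicle context libraries. Every hippocampal value was above every striatal one, also in the other 3 treatments. The log2 difference was 0.61 (SE 0.124, edgeR adjusted p = 0.000174), or 1.52-fold. Hdac9 and Hdac4 were the 2 genes whose groups did not overlap on the scaled log2 scale, where 39.7% of all genes tested did not.

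Hdac11 had 147, 142, 110 and 107 CPM in the hippocampus and 173, 170, 141 and 136 CPM in the striatum after vehicle and context. The ranges overlapped, and the log2 difference of -0.32 (SE 0.129, edgeR adjusted p = 0.0433) rested on single libraries. Without hippocampal replicate 3 or 4, or striatal replicate 1 or 2, the adjusted p was between 0.122 and 0.154. Oligodendrocyte genes (10 genes, none at 0) summed to 3346 to 4844 CPM in these hippocampal and 6278 to 8778 CPM in these striatal libraries, and their part in the result was not tested.

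Hdac7, a class IIa member known from blood vessel and T cell development, averaged 15.5 ± 4.43 CPM in the hippocampus and 11.8 ± 2.87 CPM in the striatum (SD, n = 4). Hdac6 averaged 44.4 ± 4.34 CPM in the hippocampus and 39.1 ± 3.85 CPM in the striatum. Hdac10 averaged 9.65 ± 1.62 CPM in the hippocampus and 7.97 ± 1.25 CPM in the striatum. The groups of all 3 overlapped. Hdac5, a class IIa enzyme exported from the nucleus on neuronal activity, averaged 64.7 ± 20.8 CPM in the hippocampus and 82.6 ± 24.0 CPM in the striatum. None of these 4 passed the test (edgeR adjusted p = 0.145, 0.161, 0.160 and 0.173, in the order given). Same-numbered hippocampal and striatal libraries after vehicle and context deviated together. A further fit took the replicate number as a block within each region, which removes spread between numbers but links no libraries across regions. All 7 genes were then called, beside 50.7% of all genes. They included Hdac5 (log2 difference -0.39, edgeR adjusted p = 0.00848), Hdac7 (0.35, adjusted p = 0.0110), Hdac10 (0.25, adjusted p = 0.0200) and Hdac6 (0.16, adjusted p = 0.0325). Hdac11 stayed lower (-0.32, adjusted p = 0.000519).

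**Figure D2:**
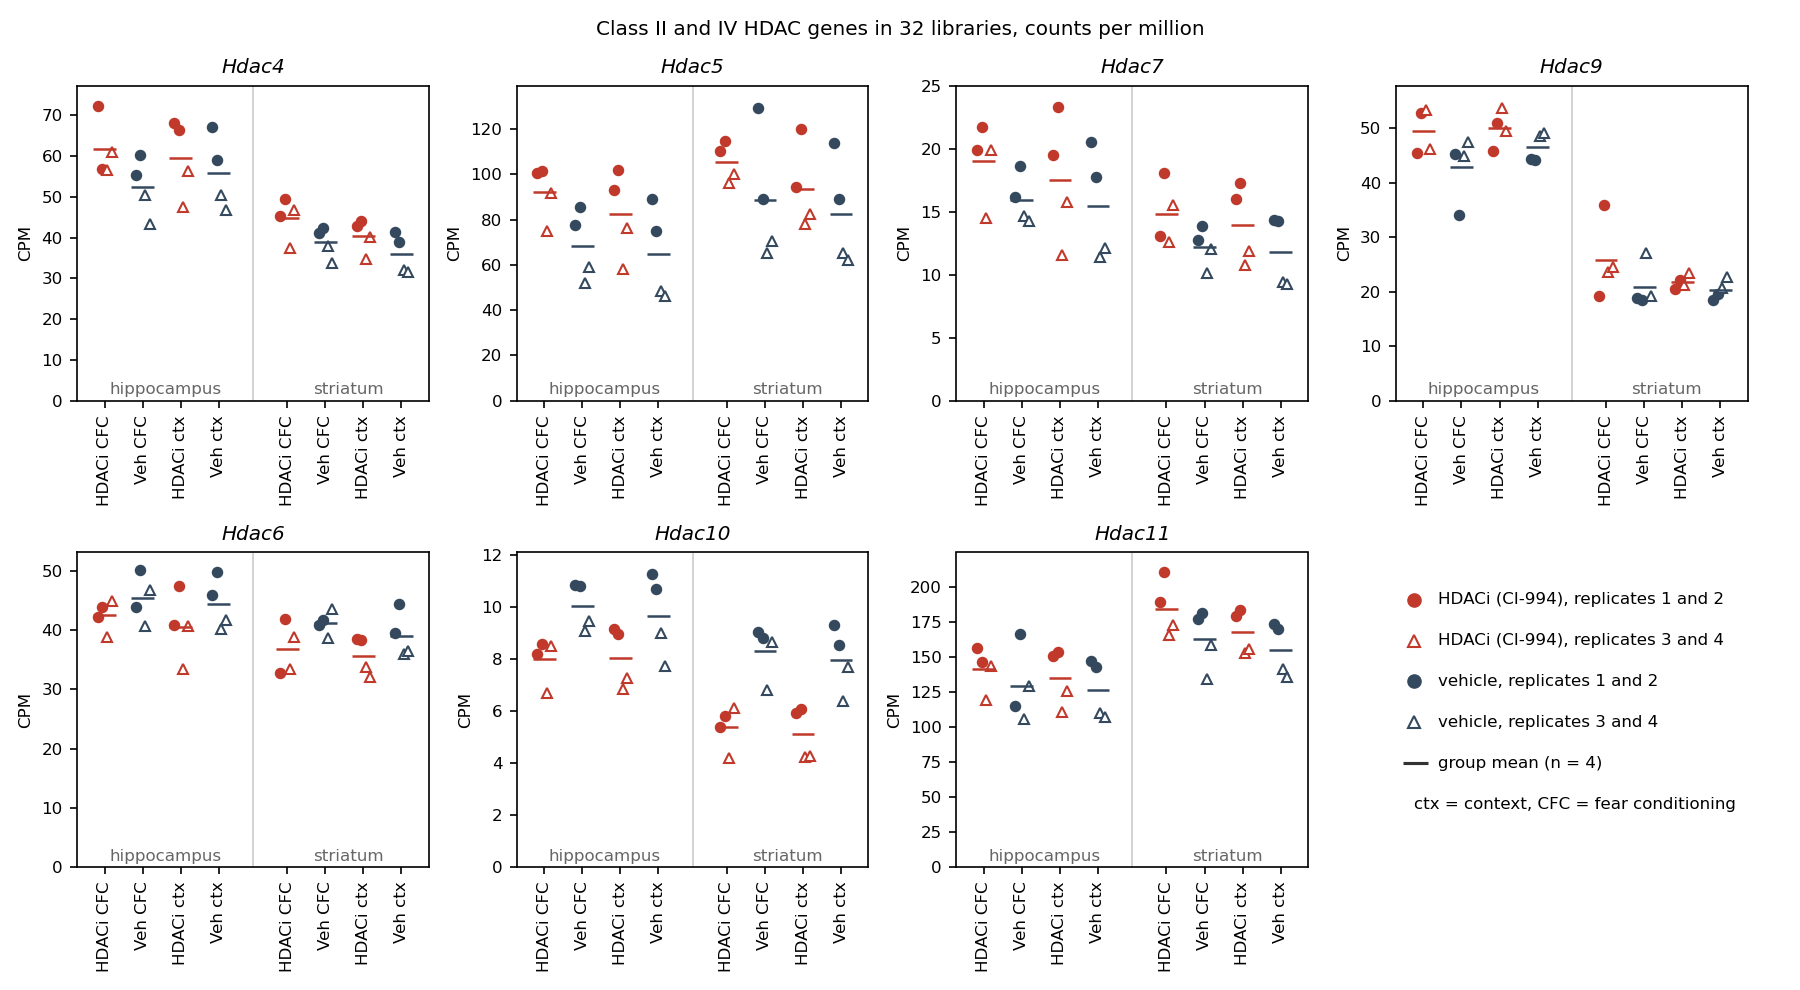
CPM of each gene in each of the 32 libraries, with CI-994 (HDACi) groups in red, vehicle groups in dark blue, circles for replicates 1 and 2, triangles for replicates 3 and 4, and a bar at the group mean (n = 4). Hdac10 lies lower in both striatal CI-994 groups than in the vehicle groups, Hdac9 lies higher in the hippocampus, and the circles of Hdac5 lie above its triangles within every group.

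CI-994 was then set against vehicle within each region and behaviour. Hdac10 fell in the striatum after CFC and after context, and it was the only one of the 7 genes called in either. In the striatum 1 of 7 genes was thus called after CFC, where 24.2% of 18256 genes were, and 1 of 7 after context, where 24.8% were. In the hippocampus 0 of 7 were called after CFC, where 20.8% of 18261 genes were, and 0 of 7 after context, where 19.8% were.

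Hdac10 in the striatum had 5.36, 5.82, 4.17 and 6.12 CPM after CI-994 with CFC, against 9.02, 8.79, 6.79 and 8.63 CPM after vehicle with CFC. The 4 CI-994 libraries were all below the 4 vehicle libraries, and Hdac10 was the only one of the 7 genes without overlap on the scaled log2 scale, where 23.6% of all genes tested had none. The log2 fold change was -0.54 (SE 0.153, edgeR adjusted p = 0.0155), a level 0.686 times that of vehicle. Without CI-994 CFC replicate 3, its lowest library, the change was -0.45 with an adjusted p of 0.0511.

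After context the striatal values were 5.91, 6.08, 4.23 and 4.27 CPM with CI-994 and 9.29, 8.53, 6.39 and 7.67 CPM with vehicle. The highest CI-994 value, 6.08 CPM, lay just below the lowest vehicle value, 6.39 CPM, and the groups overlapped once libraries were scaled. The log2 fold change was -0.53 (SE 0.152, edgeR adjusted p = 0.0176), or 0.694 times vehicle, and it lost its call without CI-994 context replicate 3 (-0.45, adjusted p = 0.0616) or 4 (-0.46, adjusted p = 0.0624). Replicate numbers were taken as pairs in this comparison, although only 2 of 4 libraries correlated best with their own number. With them as a block over all striatal groups, the change was -0.53 with an edgeR adjusted p of 0.00133. That block also covers the CFC groups, although replicate numbers did not pair the comparisons within the striatum that involve CFC.

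In the hippocampus Hdac10 had 8.19, 8.58, 6.70 and 8.50 CPM after CI-994 with CFC, against 10.8, 10.8, 9.05 and 9.46 CPM after vehicle with CFC. All 4 CI-994 libraries were again below all 4 vehicle libraries in CPM. On the scaled log2 scale, 21.4% of genes tested had groups without overlap in either direction. The Hdac10 log2 fold change of -0.26 (SE 0.127, 95% interval -0.53 to 0.00) did not pass (edgeR adjusted p = 0.166). After context the hippocampal values were 9.15, 8.94, 6.84 and 7.25 CPM with CI-994 and 11.3, 10.7, 8.98 and 7.71 CPM with vehicle, which overlapped (log2 fold change -0.18, adjusted p = 0.372). The difference between the regions in the drug effect, hippocampus minus striatum, was itself tested and was 0.28 after CFC (95% interval -0.13 to 0.69, edgeR adjusted p = 0.881) and 0.33 after context (-0.08 to 0.74, adjusted p = 0.825), so a smaller fall in the hippocampus was not shown.

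The 2 behaviours share no libraries. Within each set of replicates described further on, the striatal fall had the same sign. In CPM every striatal CI-994 library was below every vehicle library of its behaviour. The sign within a set could therefore hardly differ, and it is no further support. Among replicates 1 and 2 alone, the Hdac10 log2 fold change in the striatum was -0.59 after CFC (edgeR adjusted p = 0.0363) and -0.46 after context (0.0701). Among replicates 3 and 4 alone it was -0.51 (0.144) and -0.63 (0.0880). Oligodendrocyte precursor genes (5 genes, none at 0) summed to 287 to 327 CPM with CI-994 and 213 to 233 CPM with vehicle after CFC in the striatum. After context they summed to 278 to 326 CPM with CI-994 and 211 to 241 CPM with vehicle. Precursor genes were also higher with CI-994 in the hippocampus. There the sums were 261 to 291 against 196 to 213 CPM after CFC, and 264 to 309 against 193 to 217 CPM after context. Other lists moved too, among them the following. Hippocampal excitatory neuron genes in the hippocampus had 2073 to 2299 CPM with CI-994 and 1843 to 2048 CPM with vehicle after CFC. After context they had 2123 to 2375 against 1821 to 1981 CPM. Endothelial genes in the striatum had 241.5 to 283 against 211.3 to 225.5 CPM after context, and overlapped after CFC. Neocortical neuron genes in the hippocampus after CFC were lower, at 72.2 to 80.9 against 81.3 to 91.6 CPM. The part of these lists in any change here was not tested.

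**Figure D3:**
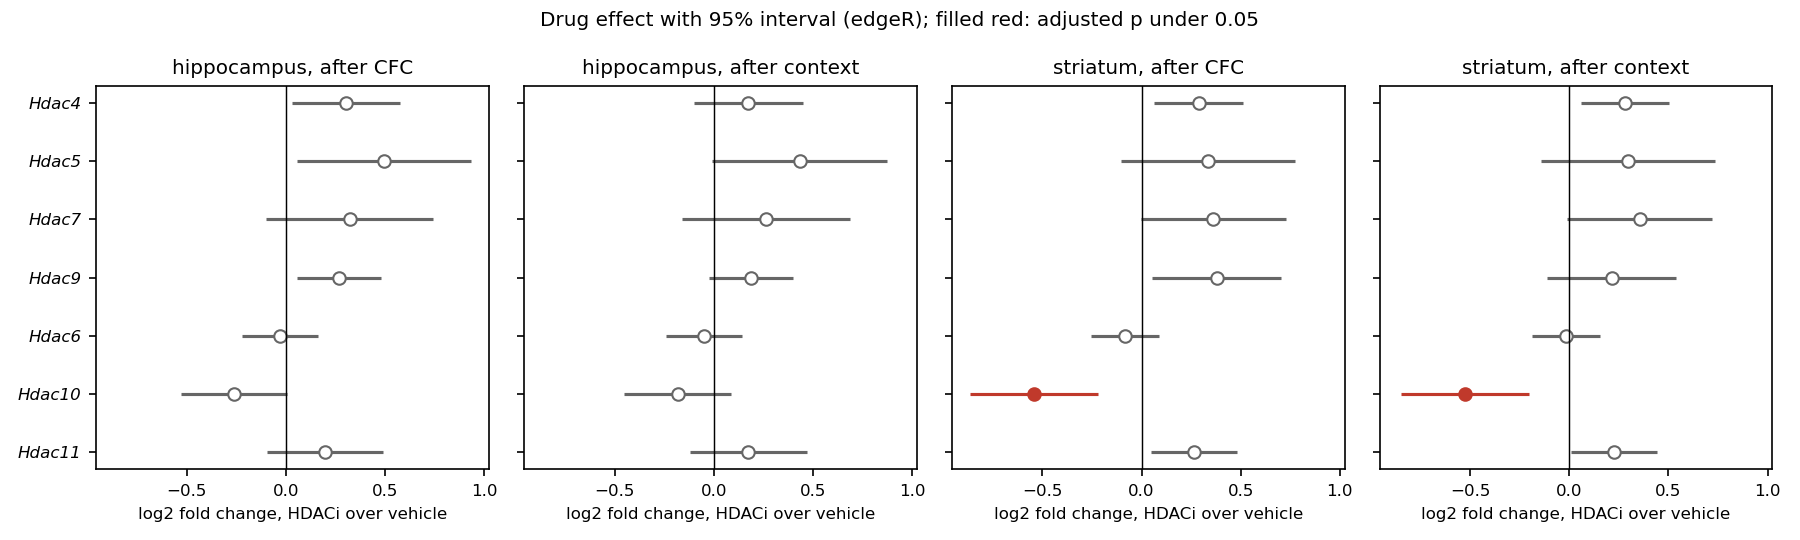
Log2 fold change of CI-994 over vehicle for the 7 genes in 4 comparisons, as edgeR estimates with 95% intervals, filled red where the adjusted p is under 0.05. Only Hdac10 in the 2 striatal comparisons is filled, at -0.54 and -0.53.

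The class IIa genes and Hdac11 lay above zero in all 4 drug comparisons without passing the test in any of them. Of the 7 genes, 5 lay above zero each time, where between 51.7% and 54.3% of all genes did. The median log2 fold change of the 7 was 0.27 and 0.17 in the hippocampus and 0.29 and 0.23 in the striatum, after CFC before context, beside all-gene medians of 0.01, 0.01, 0.03 and 0.03. At an unadjusted p under 0.05, edgeR counted 3 of 7 genes in the hippocampus after CFC, where 31.6% of all genes passed, and 0 of 7 after context, where 30.9% did. In the striatum it counted 4 of 7 after CFC, beside 36.2%, and 3 of 7 after context, beside 36.5%. DESeq2 with adjustment called 1 of 7 in the hippocampus after CFC, beside 19.3% of all genes, and 0 of 7 after context, beside 18.9%. In the striatum it called 1 of 7 after CFC, beside 22.5%, and 1 of 7 after context, beside 22.2%.

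Hdac5 had the largest hippocampal estimates. After CFC it had 101, 102, 74.9 and 92.0 CPM with CI-994 and 77.8, 85.7, 51.9 and 58.9 CPM with vehicle, which overlapped (log2 fold change 0.49, SE 0.208, edgeR adjusted p = 0.110). After context it had 93.2, 102, 58.4 and 76.4 CPM with CI-994 and 89.0, 75.0, 48.5 and 46.2 CPM with vehicle (0.43, SE 0.209, adjusted p = 0.171).

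Replicates 1 and 2 were higher than replicates 3 and 4 in each of those groups, and this spread enters the standard error. Within replicates 1 and 2, the Hdac5 change was 0.39 after CFC (edgeR adjusted p = 0.0322) and 0.34 after context (0.0549). Within replicates 3 and 4 it was 0.65 (0.0188) and 0.59 (0.0279). This split was found in the data, and Hdac5 had the highest ratio between the sets. Smaller p-values within a set are therefore no further support. With replicate numbers as a block, which were taken to pair the hippocampal samples after context, Hdac5 was called there (0.45, edgeR adjusted p = 0.00183). It was 1 of 7 genes called, beside 29% of all genes.

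In the striatum Hdac5 had 111, 115, 96.1 and 100 CPM after CI-994 with CFC and 130, 88.9, 65.2 and 70.5 CPM after vehicle with CFC. Vehicle replicate 1, at 130 CPM, was above every CI-994 library, and without it the log2 fold change was 0.58 (edgeR adjusted p = 0.0364) in place of 0.34 (adjusted p = 0.265). It was 0.22 without vehicle replicate 3, and 0.17 (adjusted p = 0.622) without the 4 libraries that stood apart. After context the values were 94.4, 120, 77.9 and 82.7 CPM with CI-994 and 114, 89.0, 65.4 and 62.2 CPM with vehicle (0.30, adjusted p = 0.330). The change was 0.13 and 0.19 within replicates 1 and 2 (adjusted p = 0.722 and 0.592) and 0.60 and 0.43 within replicates 3 and 4 (adjusted p = 0.0044 and 0.0128), after CFC before context. These single-set fits were also chosen after the split was seen, and they carry the same limit.

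Hdac4 averaged 61.6 ± 7.33 CPM with CI-994 and 52.4 ± 7.26 CPM with vehicle in the hippocampus after CFC (SD, n = 4), a log2 fold change of 0.30 (edgeR adjusted p = 0.117). In the striatum it had 45.4, 49.4, 37.4 and 46.7 CPM after CI-994 with CFC and 41.2, 42.5, 37.8 and 33.8 CPM after vehicle with CFC (0.29, SE 0.105, adjusted p = 0.0570). After context it had 42.7, 44.0, 34.7 and 40.2 CPM with CI-994 and 41.5, 38.9, 32 and 31.6 CPM with vehicle (0.28, SE 0.105, adjusted p = 0.0619). All these groups overlapped, and single libraries decided the call. With offsets for GC content and transcript length, the change was 0.19 in the hippocampus after CFC (adjusted p = 0.181), 0.09 there after context (adjusted p = 0.526), and 0.14 in the striatum after CFC (adjusted p = 0.185) and after context (adjusted p = 0.184). Hdac4 was called after CFC without striatal CI-994 replicate 3 (0.36, adjusted p = 0.0248), and after context without vehicle replicate 1 (0.32, adjusted p = 0.0405) or CI-994 replicate 3 (0.34, adjusted p = 0.0328). With the replicate block, under the pairing limit given for Hdac10, the striatal context change was called (0.28, edgeR adjusted p = 0.00868).

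Hdac7 averaged 19.0 ± 3.12 CPM with CI-994 and 15.9 ± 1.97 CPM with vehicle in the hippocampus after CFC, and 14.8 ± 2.54 CPM with CI-994 and 12.2 ± 1.59 CPM with vehicle in the striatum. Its 4 log2 fold changes lay between 0.26 and 0.36 with adjusted p from 0.143 to 0.422. Without the 4 libraries that stood apart, the change after CFC was 0.20 in the hippocampus (adjusted p = 0.726) and 0.18 in the striatum (adjusted p = 0.521), and without single libraries the hippocampal context change ran from 0.10 to 0.43. With the replicate block, under the same pairing limit, the striatal context change was called (0.36, adjusted p = 0.0200). In the genome its exons share 29 bases with those of Slc48a1 on the other strand, which had a median of 3327 counts against 462.5 for Hdac7, so reads there could be shared if counting ignored strand.

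Hdac11 averaged 141 ± 15.4 CPM with CI-994 and 129 ± 26.7 CPM with vehicle in the hippocampus after CFC, and 184 ± 20.1 CPM with CI-994 and 163 ± 21.6 CPM with vehicle in the striatum. The striatal log2 fold changes were 0.27 after CFC (SE 0.103, edgeR adjusted p = 0.0710) and 0.23 after context (SE 0.103, adjusted p = 0.12), and the hippocampal ones were 0.20 and 0.17. Without the 4 libraries that stood apart, the striatal change after CFC was 0.12 (adjusted p = 0.412). With the replicate block, under the same pairing limit, the striatal context change was called (0.23, adjusted p = 0.00288). The striatal context count was then 4 of 7 genes, beside 30.3% of all genes.

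Hdac9 had 45.5, 52.9, 53.3 and 46.2 CPM in hippocampal CI-994 CFC libraries and 45.3, 34.1, 44.8 and 47.5 CPM in the vehicle CFC libraries, a log2 fold change of 0.27 (SE 0.10, edgeR adjusted p = 0.0698). Vehicle replicate 2 was the lowest and the groups overlapped; with DESeq2 the adjusted p was 0.0409. In the striatum after CFC the values were 19.1, 36.0, 23.5 and 24.5 CPM with CI-994 and 18.8, 18.5, 27.1 and 19.2 CPM with vehicle (0.38, SE 0.154, adjusted p = 0.0841). These groups overlapped, with vehicle replicate 3 the highest of its group and CI-994 replicate 1 the lowest of its own.

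Both striatal libraries with the highest Hdac9, CI-994 CFC replicate 2 and vehicle CFC replicate 3, were those with few medium spiny neuron transcripts. Neocortical neuron genes (5 genes, none at 0) summed to 89.7 and 110 CPM in them, against 24.4 to 89.2 CPM in the other striatal libraries. Single libraries moved the striatal change of Hdac9 after CFC in both directions. It was 0.18 (edgeR adjusted p = 0.374) without CI-994 replicate 2, 0.49 (adjusted p = 0.0313) without CI-994 replicate 1 and 0.54 (adjusted p = 0.0116) without vehicle replicate 3. Without the 4 libraries that stood apart it was 0.34 (SE 0.102, adjusted p = 0.0260).

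Hdac6 had the smallest drug estimates of the 7 genes. Its log2 fold changes were -0.03 and -0.05 in the hippocampus and -0.08 and -0.02 in the striatum, after CFC before context, with adjusted p from 0.499 to 0.894. Their 95% intervals reached from -0.25 to 0.16, which leaves room for a change of that size. Hdac6 averaged 36.7 ± 4.40 CPM with CI-994 and 41.2 ± 1.97 CPM with vehicle in the striatum after CFC, with overlapping groups.

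**Figure D4:**
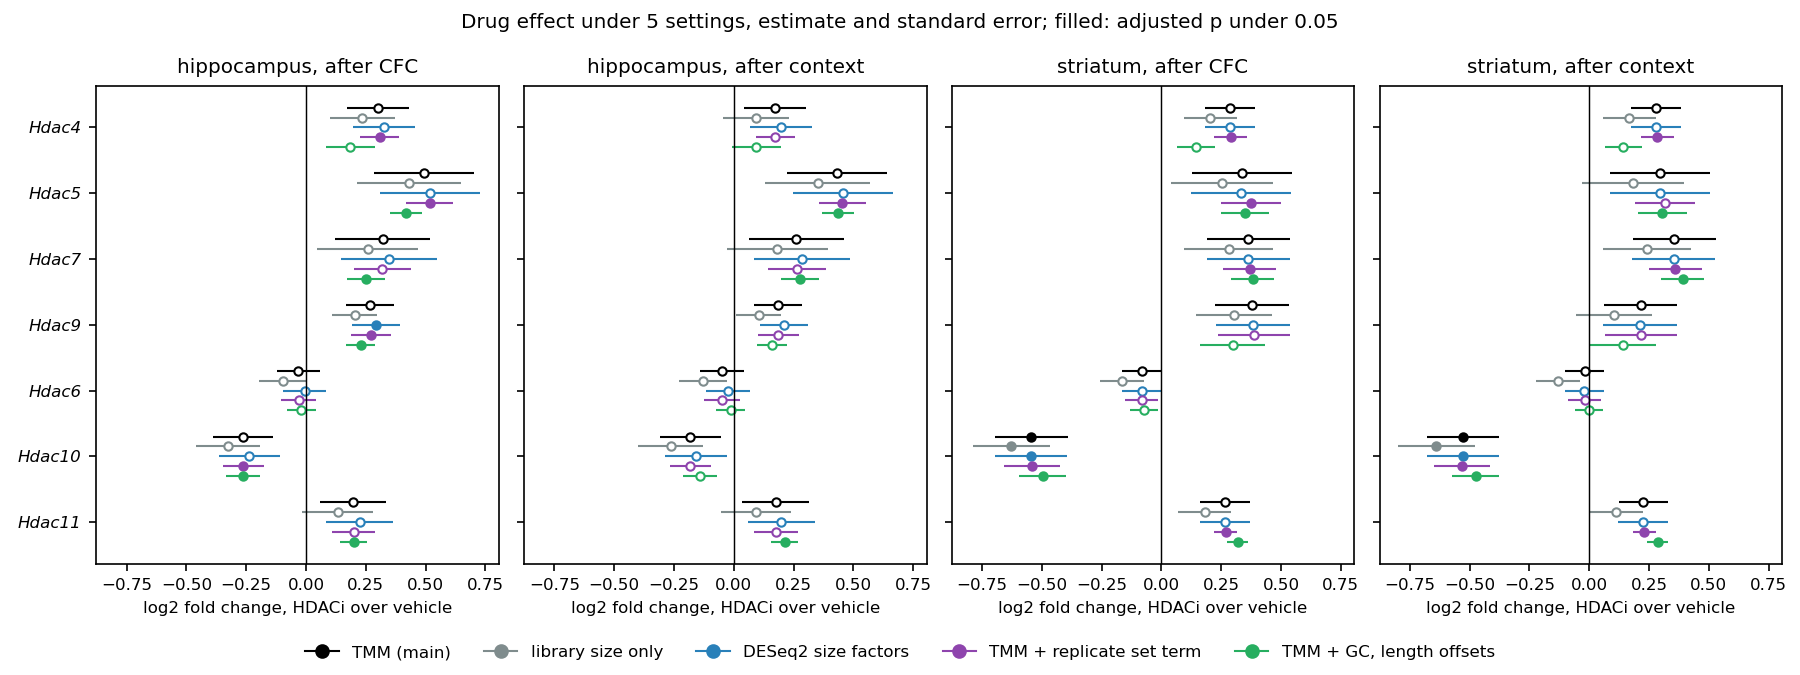
Log2 fold change of CI-994 over vehicle with its standard error for each gene under 5 settings of scaling and spread, filled where the adjusted p is under 0.05. No estimate of Hdac4, Hdac5, Hdac7, Hdac9, Hdac11 or Hdac10 changes sign, whereas the number of filled points grows where replicate set or base composition is modelled.

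Conditioning was set against context within each drug and region. None of the 7 genes was called in any of these 4 comparisons, and 0% of all genes were called by edgeR in each. In the hippocampus, 0 of 7 had an unadjusted p under 0.05 under vehicle, where 1.03% of genes did, and 0 of 7 under CI-994, where 4.24% did. In the striatum, the counts were 0 of 7 beside 1.18% of genes under vehicle and 0 of 7 beside 5.41% under CI-994. DESeq2 also called 0 of 7 in each, beside 0.0059% of all genes in the striatum under CI-994 and 0% in the other 3.

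The estimates for conditioning were small against their errors. They lay between -0.12 (Hdac9, hippocampus, vehicle) and 0.19 (Hdac9, striatum, CI-994) on the log2 scale, with standard errors from 0.0809 to 0.208. Both ends rest on 1 library: the first was -0.02 without vehicle CFC replicate 2, and the second 0.01 without CI-994 CFC replicate 2. Their 95% intervals ran from -0.39 to 0.58, so changes of that size could not be told from none. Hdac5, for instance, averaged 68.6 ± 15.8 CPM after CFC and 64.7 ± 20.8 CPM after context in vehicle hippocampus.

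Whether CI-994 acted differently after CFC than after context was tested as an interaction. 0 of 7 genes were called in the hippocampus or the striatum, as were 0% of all genes in each, and 0 of 7 had an unadjusted p under 0.05, where 2.14% and 2.08% of genes did. The interaction estimates lay between -0.08 and 0.16. The difference between regions in the drug effect was called for 0 of 7 genes after CFC, where 0.266% of genes were called, and for 0 of 7 after context, where 0.62% were; no member had an unadjusted p under 0.05 in either, where 7.84% and 7.74% of all genes did. DESeq2 called 0 of 7 in all 4 of these tests, beside 0.00293% of all genes for the hippocampal interaction, 0% for the striatal one, 0.921% for the region difference after CFC and 1.14% after context.

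In 6 of the 7 genes, all but Hdac9, replicates 1 and 2 averaged higher than replicates 3 and 4 in both regions. The labels name no batch that would separate those numbers, and the split was found in the data. For Hdac5 the mean CPM of replicates 1 and 2 was 1.43 times that of replicates 3 and 4 in the hippocampus and 1.39 times in the striatum, and both libraries of the first set exceeded both of the second in 4 of 4 groups in each region.

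The ratio was highest in the genes of highest GC content and lowest in the gene of lowest GC content. Hdac5 and Hdac7, with 59.8% and 60.2% GC in their longest transcripts, had ratios of 1.43 and 1.38 in the hippocampus and 1.39 and 1.31 in the striatum. Hdac11 (57.4% GC), Hdac10 (56.3%), Hdac4 (52.5%) and Hdac6 (52.6%) had 1.24, 1.22, 1.23 and 1.11 in the hippocampus and 1.2, 1.22, 1.17 and 1.09 in the striatum. Hdac9, with 45.0% GC, was the only one of the 7 below 1, at 0.924 in the hippocampus and 0.95 in the striatum.

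**Figure D5:**
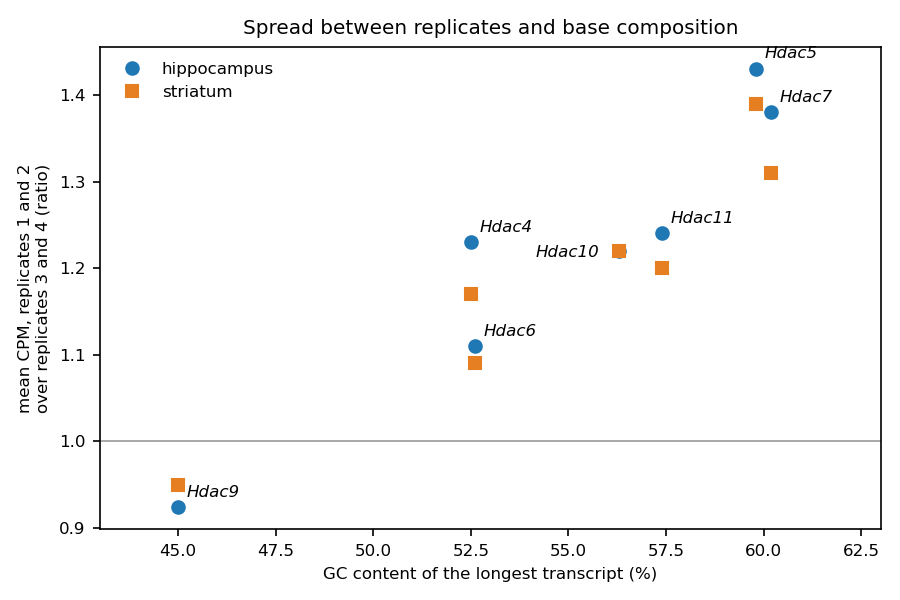
Ratio of the mean CPM in replicates 1 and 2 to that in replicates 3 and 4 (8 libraries each per region) against the GC content of the longest transcript, for the 7 genes in hippocampus and striatum. Hdac9 at 45.0% GC lies below 1, and Hdac5 and Hdac7 at about 60% GC lie highest, at 1.43 and 1.38 in the hippocampus.

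Standard errors were smaller when base composition entered the fit. With offsets for GC content and length in the fit, the median standard error over the comparisons was 0.0847 for Hdac5 in place of 0.208, 0.0841 for Hdac7 in place of 0.186, and 0.0505 for Hdac11 in place of 0.121. For Hdac9 it was 0.0992 in place of 0.127. Under those offsets Hdac5, Hdac7, Hdac9 and Hdac11 rose and Hdac10 fell in the hippocampus after CFC (5 of 7 called, beside 31.1% of all genes), and Hdac5, Hdac7 and Hdac11 rose after context (3 of 7, beside 31.3%). In the striatum Hdac5, Hdac7 and Hdac11 rose and Hdac10 fell after both CFC and context (4 of 7 each, beside 31.4% and 32% of all genes).

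Some of the genes followed each other across libraries. With each region's mean subtracted, the 6 correlations among Hdac4, Hdac5, Hdac7 and Hdac11 over 32 libraries lay between 0.824 and 0.882. They are given as a description, and the part of depth, replicate set, base composition or drug in them was not tested. Hdac9 and Hdac10 ran opposite, at -0.636. Differences between CI-994 and vehicle stayed in these values. Hdac4, Hdac5, Hdac7 and Hdac11 all had drug estimates above zero, and Hdac9 and Hdac10 had drug estimates of opposite sign. Among 9741 genes, those most like Hdac5 were Caskin2 and Jup (0.971 and 0.963, both with GC contents near that of Hdac5), and those most like Hdac11 were Nyap1 and Spock2 (0.956 and 0.942). Hdac7 was most like Rapgef3 and Plxnb1 (0.929 and 0.926), Hdac4 like Pacsin1 and Mtss1l (0.913 and 0.907), and Hdac10 like Atad3a and Ric8a (both 0.921). Hdac6 was most like Dpysl4 and Dennd6b (0.874 and 0.862) and Hdac9 like March1 and Xpr1 (0.872 and 0.866), all over the 32 libraries.

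The genes also differ in the base composition ahead of their start sites. RefSeq (GRCm38.p6) windows of 250 bases before a start were at hand for 6 of the 7 genes, all but Hdac10, and only stretches free of annotated exons are shown, 5′ to 3′ on the gene's strand. Shown are the gene of lowest GC content, Hdac9, which has 2 windows, and Hdac5, Hdac4 and Hdac11, whose libraries followed each other. Hdac7, which followed them too, has windows at several starts and is described below without its sequence. Capitals mark matches, on either strand, to a MEF2 site or to the GC box GGGCGG; no E-box CACGTG and no CRE TGACGTCA matched.
Hdac9, chr12:34917096-34917345, minus strand: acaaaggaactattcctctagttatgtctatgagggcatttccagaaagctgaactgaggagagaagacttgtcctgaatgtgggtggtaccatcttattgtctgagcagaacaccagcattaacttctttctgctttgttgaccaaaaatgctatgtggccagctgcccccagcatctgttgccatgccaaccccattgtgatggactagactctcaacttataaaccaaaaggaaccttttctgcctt
Hdac9, chr12:34528890-34529139, minus strand: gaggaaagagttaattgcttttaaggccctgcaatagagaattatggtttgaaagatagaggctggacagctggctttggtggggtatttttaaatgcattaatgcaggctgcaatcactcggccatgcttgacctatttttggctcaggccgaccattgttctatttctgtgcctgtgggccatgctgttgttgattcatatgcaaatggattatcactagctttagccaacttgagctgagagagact
Hdac5, chr11:102230173-102230422, minus strand: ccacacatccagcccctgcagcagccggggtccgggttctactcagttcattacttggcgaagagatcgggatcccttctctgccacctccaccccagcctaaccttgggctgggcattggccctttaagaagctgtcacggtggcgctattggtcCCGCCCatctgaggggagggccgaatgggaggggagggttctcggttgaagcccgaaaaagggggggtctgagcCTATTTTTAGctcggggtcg
Hdac4, chr1:92180342-92180591, minus strand: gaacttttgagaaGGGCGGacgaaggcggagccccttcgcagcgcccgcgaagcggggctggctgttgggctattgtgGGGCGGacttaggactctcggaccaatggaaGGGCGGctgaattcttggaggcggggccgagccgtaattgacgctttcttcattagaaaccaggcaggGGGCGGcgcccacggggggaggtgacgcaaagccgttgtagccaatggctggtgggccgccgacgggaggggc
Hdac11, chr6:91156565-91156664, plus strand: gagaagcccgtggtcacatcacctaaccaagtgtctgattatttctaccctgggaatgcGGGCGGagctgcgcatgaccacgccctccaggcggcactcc

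Both Hdac9 windows were poor in GC (44.4% and 43.6%) and held 0 and 2 CpG pairs, below the medians of 52.4% GC and 6 CpG pairs over 32851 RefSeq windows. The Hdac4 window had 65.2% GC, 23 CpG pairs and 4 GC boxes. The Hdac5 window had 60.8% GC, 12 CpG pairs, 1 GC box and 1 MEF2 match whose first base lies 20 bases before the start. The full Hdac11 window had 65.2% GC and 17 CpG pairs. The Hdac7 windows, at several starts, had 56.4%, 62%, 74% and 61.2% GC, with 6, 21, 25 and 5 CpG pairs. Of these, only the window with 74% GC, which lies wholly in annotated exons, held a GC box. Among all windows 2.92% held a MEF2 match, 6.02% the E-box, 1.55% the CRE and 32.7% a GC box, and a match is a description of letters, not of binding.

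Genes that act with class II HDACs were taken from lists by role. Of 17 kinases that phosphorylate class IIa HDACs or activate those kinases, 1 rose and 0 fell in each of the 4 drug comparisons, and it was Camk1g each time. That is a smaller share of the list than of all genes called in each comparison (20.8%, 19.8%, 24.2% and 24.8% in the order hippocampus after CFC, hippocampus after context, striatum after CFC and striatum after context). These shares are the background for the other lists too, none of which was tested against it. Camk1g, a calmodulin-dependent kinase, had 108, 87.8, 74.5 and 88.9 CPM in striatal CI-994 context libraries, against 41.7, 45.3, 45.4 and 42.8 CPM in vehicle context libraries. Its fold was 1.34 and 1.45 in the hippocampus and 1.85 and 2.21 in the striatum, after CFC before context (edgeR adjusted p = 0.00328, 0.000480, 0.000131 and 1.07e-05). None of the 7 14-3-3 genes was called in any of the 4.

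Among the DNA-binding partners of class IIa HDACs, 6 of 7 were tested, and 1 rose and 1 fell in the hippocampus after CFC, 2 rose and 1 fell after context, and 1 rose in each striatal comparison. Mef2d, a MEF2 factor, rose in all 4 drug comparisons, by 1.29- and 1.34-fold in the hippocampus and 1.23- and 1.31-fold in the striatum (edgeR adjusted p = 0.00215, 0.000666, 0.00457 and 0.000627). Srf, the serum response factor, fell in the hippocampus: it averaged 25.9 CPM with CI-994 and 42.5 CPM with vehicle after CFC, and 23.9 CPM with CI-994 and 40.3 CPM with vehicle after context (log2 fold changes -0.65 and -0.68, adjusted p = 0.00549 and 0.00437). Mef2c rose in the hippocampus after context (1.22-fold, adjusted p = 0.0253).

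In the NCoR and SMRT complex, which includes Hdac3, 2 of 6 genes rose in each drug comparison, Tbl1x and Tbl1xr1. Tbl1x, which tethers the complex to chromatin, rose 1.39- and 1.40-fold in the hippocampus and 1.40- and 1.49-fold in the striatum (edgeR adjusted p = 0.00162, 0.00128, 0.000138 and 2.40e-05). Gps2, another subunit, fell in 3 of the 4, at 0.768 times vehicle in the hippocampus after CFC and 0.749 and 0.740 times in the striatum (adjusted p = 0.0287, 0.0481 and 0.0383).

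Of 8 Hdac6 substrates and tubulin acetylation genes, 1 rose and 0 fell in both hippocampal comparisons and in the striatum after CFC, and 0 of 8 changed in the striatum after context. The gene was the alpha tubulin Tuba1a (1.15-, 1.22- and 1.30-fold, edgeR adjusted p = 0.0174, 0.00137 and 0.0137). Of 10 polyamine metabolism genes, 1 rose and 1 fell in each hippocampal comparison, and 2 rose after CFC and 1 after context in the striatum. Oaz2, an inhibitor of polyamine synthesis, rose in all 4, between 1.15- and 1.2-fold (adjusted p from 0.00119 to 0.0217). Paox, a polyamine oxidase, fell in both hippocampal comparisons, to 0.773 and 0.796 times vehicle (adjusted p = 0.0188 and 0.0386). Sat1, a polyamine acetyltransferase, rose in the striatum after CFC (1.26-fold, adjusted p = 0.0175). Of the 4 class I genes, Hdac2 fell in the hippocampus after CFC (0.828 times vehicle, adjusted p = 0.0473) and Hdac1 rose there after context (1.13-fold, adjusted p = 0.0390).

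By position, the 7 genes lie on 6 chromosomes (GENCODE, mm10). Hdac9 (ENSMUSG00000004698, chr12:34047580-34917095, minus strand) spans 869516 bases, whereas Hdac10 (ENSMUSG00000062906, chr15:89123307-89128700, minus strand) spans 5394 bases. Hdac4 (ENSMUSG00000026313) lies at chr1:91928779-92195699, Hdac5 (ENSMUSG00000008855) at chr11:102194432-102230166, Hdac6 (ENSMUSG00000031161) at chrX:7930120-7947889 and Hdac7 (ENSMUSG00000022475) at chr15:97792664-97844502, all on the minus strand. Hdac11 (ENSMUSG00000034245) lies at chr6:91156665-91174692 on the plus strand. Hdac6 and Hdac10 overlap no other annotated gene, and the opposite-strand noncoding genes that share exon bases with Hdac4 and Hdac11 had median counts of 0 to 2.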

How the data were processed

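Read counts per gene for 32 libraries (4 per group, 8 groups, taken from the sample titles) were deposited by the authors; the submitters' processing notes name STAR 2.6, bcl2fastq 2.20.0, DESeq2 and mm10, while the counting tool, and whether it used strand, is not given in the sources used here. The kit was stranded, per the labels' protocols. Identifiers were named by GENCODE (54079 of 54146), and the 67 unnamed ones held at most 0.0264% of a library.

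CPM used library totals, and TPM used the length of all annotated exons of a gene joined. Genes kept by filterByExpr were fitted with edgeR 4.0.16 (R 4.3.3; TMM, quasi-likelihood F test, two-sided), 16 libraries per region, or all 32 for contrasts between regions, with Benjamini-Hochberg adjustment over all genes. DESeq2 1.42.0, other scaling, offsets for GC content and length, sets of replicates and leaving out libraries were alternatives. The procedure was tested on simulated counts. The members, gene lists and alternatives were chosen with earlier results of these data known. Genes named are the 7 members, the class I genes, up to 3 called genes per list and comparison, and the 2 most correlated genes per member.

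No 2 libraries of a group agreed within sampling noise (chi-square per degree of freedom at least 5.35). Replicates are separate mice per the labels. Replicate numbers were taken as pairs where every pair's deviations correlated above 0.1: drug against vehicle after context in both regions (lowest 0.464 in the hippocampus and 0.107 in the striatum), hippocampal CFC against context under either drug, and hippocampus against striatum except for CI-994 with CFC. They did not pair the drug comparisons after CFC or the striatal CFC comparisons.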

Additional observations from a re-analysis of the deposited data

Results flagged for a closer look

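Hdac9 in the striatal vehicle CFC group had 1 library far above the other 3: replicate 3 had 27.1 CPM, against 18.5 to 19.2 CPM in the others. It was the only such case among 56 groups of 4 libraries, and chance alone flags about 1 group in 20. In that library medium spiny neuron genes summed to 6407 CPM, against 8312 to 8884 CPM in the rest of its group. Hippocampal excitatory neuron genes summed to 710 CPM there, against 433 to 489 CPM, and neocortical neuron genes to 110 CPM, against 25.8 to 33.2 CPM. Their part in the Hdac9 value was not tested.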

How the results depend on the processing

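The number of the 7 genes called in the drug comparisons depended on how the spread between replicates was modelled. All-gene calls moved too: 19.8% to 24.8% of genes in the 4 drug comparisons became 27.9% to 31% with the block or the set term, 31.1% to 32% with offsets, 31.6% to 36.6% with both, and 7.67% to 12.6% in a single replicate set. In the hippocampus after CFC, where 0 were called, the count was 5 with the replicate block, 4 with a term for replicates 1 and 2 against 3 and 4, 5 with GC and length offsets, 5 with block and offsets together, and 1 with DESeq2, with its size factors, in the 2 groups alone, in replicates 1 and 2 alone or in replicates 3 and 4 alone. In the hippocampus after context, also 0, it was 1 with the replicate block, 1 with the replicate set term, 3 with offsets, 3 with block and offsets, and 1 in replicates 3 and 4 alone. In the striatum after CFC, where 1 was called, it was 5 with the block, 5 with the set term, 4 with offsets, 4 with block and offsets, and 2 without the 4 libraries that stand apart; leaving out single libraries gave 1 to 2. After context, also 1, it was 4 with each of the block, the set term, the offsets and both, 0 in replicates 1 and 2 alone, and 0 to 2 without single libraries. Between regions, where 44.1% of all genes were called and 50.3% to 52.7% under these fits, 3 became 7 with the replicate block, within each region or shared by both, and 6 with the set term, the offsets or both. The replicate numbers share only a number in the drug comparisons after CFC, where 3 of 4 hippocampal and 1 of 4 striatal libraries correlated best with their own number. In the drug comparisons after context, taken as pairs by the 0.1 rule, 2 of 4 libraries did so in each region. The pairing is therefore uncertain there too. The block changed no member's call in the conditioning, interaction or region-by-drug comparisons. No called value changed sign. Over the values of single genes, in settings other than single left-out libraries, 1012 kept their side of the threshold, 81 passed it newly and 6 no longer passed it; small uncalled estimates crossed zero in some settings. The block with offsets, the single-set fits and the shared block were chosen after seeing the data. Of all genes, 1355 were called higher and 2442 lower in the hippocampus after CFC, 1006 and 3254 with scaling by library size alone, and 2764 and 2914 with the offsets. After context these counts were 1196 and 2416, 811 and 3467 by library size, and 2888 and 2823 with the offsets. In the striatum after CFC they were 1748 and 2668, and 1111 and 3622 by library size; after context they were 1878 and 2646, and 1079 and 3969 by library size. Hdac10, with 116 to 397 counts a library, was the least deeply counted member.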

Other observations

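The neighbours of Hdac10 on chromosome 15 were read out because of their position, after its values were seen. Tubgcp6 (a gamma tubulin complex subunit), which lies next to Hdac10 on the same strand, fell with CI-994 in the striatum. It averaged 32.5 CPM with CI-994 and 41.7 CPM with vehicle after CFC, and 30.2 CPM with CI-994 and 41.8 CPM with vehicle after context (log2 fold changes -0.28 and -0.35, edgeR adjusted p = 0.0304 and 0.00697). In the hippocampus its changes were -0.08 and -0.10 (adjusted p = 0.588 and 0.502). Mapk12 (a p38 family kinase), on the other side, had log2 fold changes between -0.01 and 0.13 in the 4 drug comparisons (adjusted p from 0.543 to 0.992).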
